A study of Mus musculus with 163 samples.

Results

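The 10 genes described here mark pluripotent cells or take part in setting aside the germ line: Pou5f1, Sox2, Nanog, Klf4, Prdm1 (also called Blimp1), Prdm14, Tfap2c, Sall4, Lin28a and Dppa5a. They were chosen by name as a textbook list, with no threshold on their values, and all 10 were found among the 21950 genes of the deposited count table. The question put to them was whether oocytes made from induced pluripotent stem cells (iPSCs) keep transcripts of the pluripotent or specification stage that oocytes of other sources lack. The answer differed by gene. Klf4 was 3.65-fold higher in iPSC-derived than in gonad-derived growing oocytes, with no overlap between oocytes, and 2.71-fold higher in fully grown oocytes. Against growing oocytes from in vivo it was 2.76-fold higher, but this was 5.35-fold against 16 of them and 1.40-fold against the other 8, which stood apart. Prdm1 was 2.00-fold and 1.80-fold higher in the same comparisons. Sox2, a low transcript, was 2.64-fold higher in iPSC-derived than in gonad-derived FGOs but not in GROs, and Tfap2c was 1.51-fold and 1.57-fold higher. Nanog was close to absent in every source, and Pou5f1, Sall4, Lin28a and Dppa5a differed between these origins by less than 1.5-fold in either direction.

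Pluripotent stem cells of the mouse are held in their state by a core of DNA-binding factors, Pou5f1 (Oct4), Sox2 and Nanog, with Klf4 among the factors of the naive state. In the embryo and in culture, primordial germ cells are specified when Prdm1, Prdm14 and Tfap2c are switched on, somatic genes are repressed and parts of the pluripotency network are kept or turned on again. Several of these genes, such as Pou5f1, are also stored as maternal transcripts in growing oocytes, so that their presence in an oocyte is not in itself a trace of a stem cell.

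The study followed oogenesis in culture as steps: formation of primordial germ cell-like cells from stem cells (IVP), differentiation of oocytes in reconstituted ovaries (IVD) and growth of follicles (IVG). Single mouse oocytes were sequenced by Smart-seq2, a full-length protocol for polyadenylated RNA, either as growing oocytes (GROs) or as fully grown oocytes (FGOs). The 163 oocytes fall into 7 groups. GROs comprised 23 oocytes from the BVSC-iPSC line, 24 from E12.5 gonads and 24 that grew in vivo. FGOs comprised 24 from BVSC-iPSC, 24 from E12.5 gonads, 24 from follicles taken at 6 days post partum (6 dpp) and grown in culture, and 20 that grew in vivo. BVSC-iPSC is a single female line made from tail tip fibroblasts of an adult mouse. It carries a Blimp1-Venus and a Stella-ECFP reporter, so that transgenes report Prdm1 and Dppa3, and germ cell-like cells were sorted for both. Those cells were then aggregated with gonadal somatic cells of outbred Swiss Webster embryos, and the study considers it likely that some oocytes without the Stella-ECFP signal came from germ cells left in the host tissue. The gonad-derived oocytes came from aggregates of all cells of the E12.5 gonad. How the line was reprogrammed, and whether the Blimp1 reporter holds exons of Prdm1, are not given in the sources used here. Cell line, with its genetic background, origin and time in culture go together in this design and cannot be told apart. By the study's measurements, GROs of the iPSC and gonad origins were also larger than in vivo GROs. The study treats this as a possible confounder of expression in GROs. Oocyte size was not used here, and its part in ratios against in vivo GROs was not tested.

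The labels name no animal, embryo or culture behind an oocyte. Each group therefore counts as 1 sample, no comparison has a replicate check, and no test is given. Levels are pooled counts-per-million values (CPM) of a group, with an exact Poisson 95% interval that covers counting error only. They are followed by the lowest, median and highest oocyte. CPM is a share of the counted reads. A higher or lower CPM, also between stages of growth, therefore need not mean more or less transcript per oocyte. The spike-ins of the study were not used here. Counted reads per oocyte ran from 2.17 to 13.7 M (M, mega), with a median of 6.93 M, so that 3 reads over a group amount to about 0.0181 to 0.0207 CPM. All 12 oocyte markers, from Zp3 and Gdf9 to Figla, had reads in every group. The summed level of 13 granulosa and cumulus genes had medians of 23.2 to 31.7 CPM in GROs and 73.2 to 103 CPM in FGOs, and Cyp19a1 was the highest of them in each group. Single oocytes reached 1601 CPM among 6 dpp FGOs and 384 CPM among in vivo FGOs, and 8 theca and stroma genes summed to as much as 814 CPM in a 6 dpp FGO. Fewer cells and less RNA per cell cannot be told apart for such genes.

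Among in vivo GROs, the 8 oocytes numbered 17 to 24 stood apart from numbers 1 to 16. Of 12447 genes above the level filter in that group, 838 (6.73%) had no overlap between these sets, against 0 to 8 genes for the same numbers in the other 6 groups. The labels give no batch, animal or age for them, total reads were alike (medians of 6.82 and 6.87 M) and so were the summed granulosa and cumulus genes (medians of 22.4 and 23.2 CPM). Where results rest on in vivo GROs, the counts of listed genes past 2-fold and some of the ratios are therefore also given with each set left out. Other values are given with all 24. The division was made after the data were seen.

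In GRCm38 the genes lie at chr17:35506032-35510777 (Pou5f1), chr3:34649995-34652461 (Sox2), chr6:122707489-122714633 (Nanog), chr4:55527137-55532475 (Klf4) and chr10:44437174-44528558 (Prdm1). The others lie at chr1:13113428-13127163 (Prdm14), chr2:172545678-172558622 (Tfap2c), chr2:168748332-168767201 (Sall4), chr4:134003330-134019196 (Lin28a) and chr9:78367052-78368199 (Dppa5a). All values below count reads in exons.

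On the scale of pooled CPM + 0.5, Klf4 and Prdm1 had the highest log2 ratios of iPSC-derived to gonad-derived oocytes in the list at both stages. In raw CPM of FGOs, Sox2 (2.64-fold) and Prdm14 (2.26-fold) exceeded Prdm1 (1.80-fold). The 250 bases upstream of a start site of Klf4 and of Prdm1 in RefSeq (GRCm38.p6) are given 5′ to 3′ on the strand of the gene. The Klf4 window is chr4:55532476-55532725 and the Prdm1 window chr10:44458749-44458998, both on the minus strand. The Klf4 window adjoins the counted gene. That of Prdm1, the one start listed for it in the promoter table, lies inside the span of the counted gene, which runs farther upstream, so it belongs to an internal start. Capitals mark matches, on either strand, to GGGCGG (the GC box of Sp and Klf factors) and GCCNNNGGC (the core of TFAP2 sites).
Klf4: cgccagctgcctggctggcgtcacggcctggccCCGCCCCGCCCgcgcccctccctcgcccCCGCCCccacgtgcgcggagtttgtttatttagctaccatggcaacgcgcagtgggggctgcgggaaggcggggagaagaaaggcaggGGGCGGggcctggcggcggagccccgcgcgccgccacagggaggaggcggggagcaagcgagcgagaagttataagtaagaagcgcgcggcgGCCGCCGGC
Prdm1: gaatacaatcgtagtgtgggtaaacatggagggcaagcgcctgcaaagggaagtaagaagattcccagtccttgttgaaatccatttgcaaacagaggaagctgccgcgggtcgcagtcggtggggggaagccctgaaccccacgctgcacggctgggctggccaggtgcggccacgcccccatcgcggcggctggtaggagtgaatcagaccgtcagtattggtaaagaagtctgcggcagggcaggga
The Klf4 window held 4 GC box matches, the farthest pair sharing 1 base, and 1 TFAP2 match that ends at the start site. The Prdm1 window held 0 matches to either. Of 32817 promoter windows of this length, 32.7% held a GC box match and 13.7% a TFAP2 match. The octamer ATGCAAAT, the CACCC box CCACACCC, the Nobox core TAATTG and TATAAA were found in neither window, against 1.60%, 3.19%, 7.17% and 12.4% of all windows. The Klf4 window held 32 CpG and the Prdm1 window 15, with a median of 6.00 over all windows, and 95.4% and 72.7% of windows held fewer. Upstream windows of Pou5f1, Sox2, Nanog and Lin28a were read in the same way, with 2 GC box matches for Sox2, 1 in 1 of the 2 windows of Pou5f1 and 1 TFAP2 match for Lin28a. Prdm14, Tfap2c, Sall4 and Dppa5a have no entry in the promoter table. A match to these letters is a description of the sequence and not evidence that a factor binds.

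Per length of transcript, the genes with a read spanned more than 4 orders of magnitude in oocytes. In GROs grown in vivo, Dppa5a reached 1267 CPM per kilobase of exon (RPKM), above 99.9% of genes. Sall4 stood at 105 RPKM, Pou5f1 at 101 RPKM, Tfap2c at 35.8 RPKM and Lin28a at 15.2 RPKM. Prdm1 was at 1.69 RPKM and Klf4 at 1.05 RPKM. Sox2, at 0.223 RPKM, and Prdm14, at 0.0170 RPKM, were lower still, and Nanog had no read. These 5 genes above 10 RPKM are thus abundant maternal transcripts of the normal oocyte, and the remainder lie low or near the limit of counting. In iPSC-derived GROs the order on this scale was the same except that Pou5f1 (89.0 RPKM) stood above Sall4 (60.5 RPKM), and Klf4 was at 2.88 RPKM and Prdm1 at 4.75 RPKM.

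**Figure D1:**
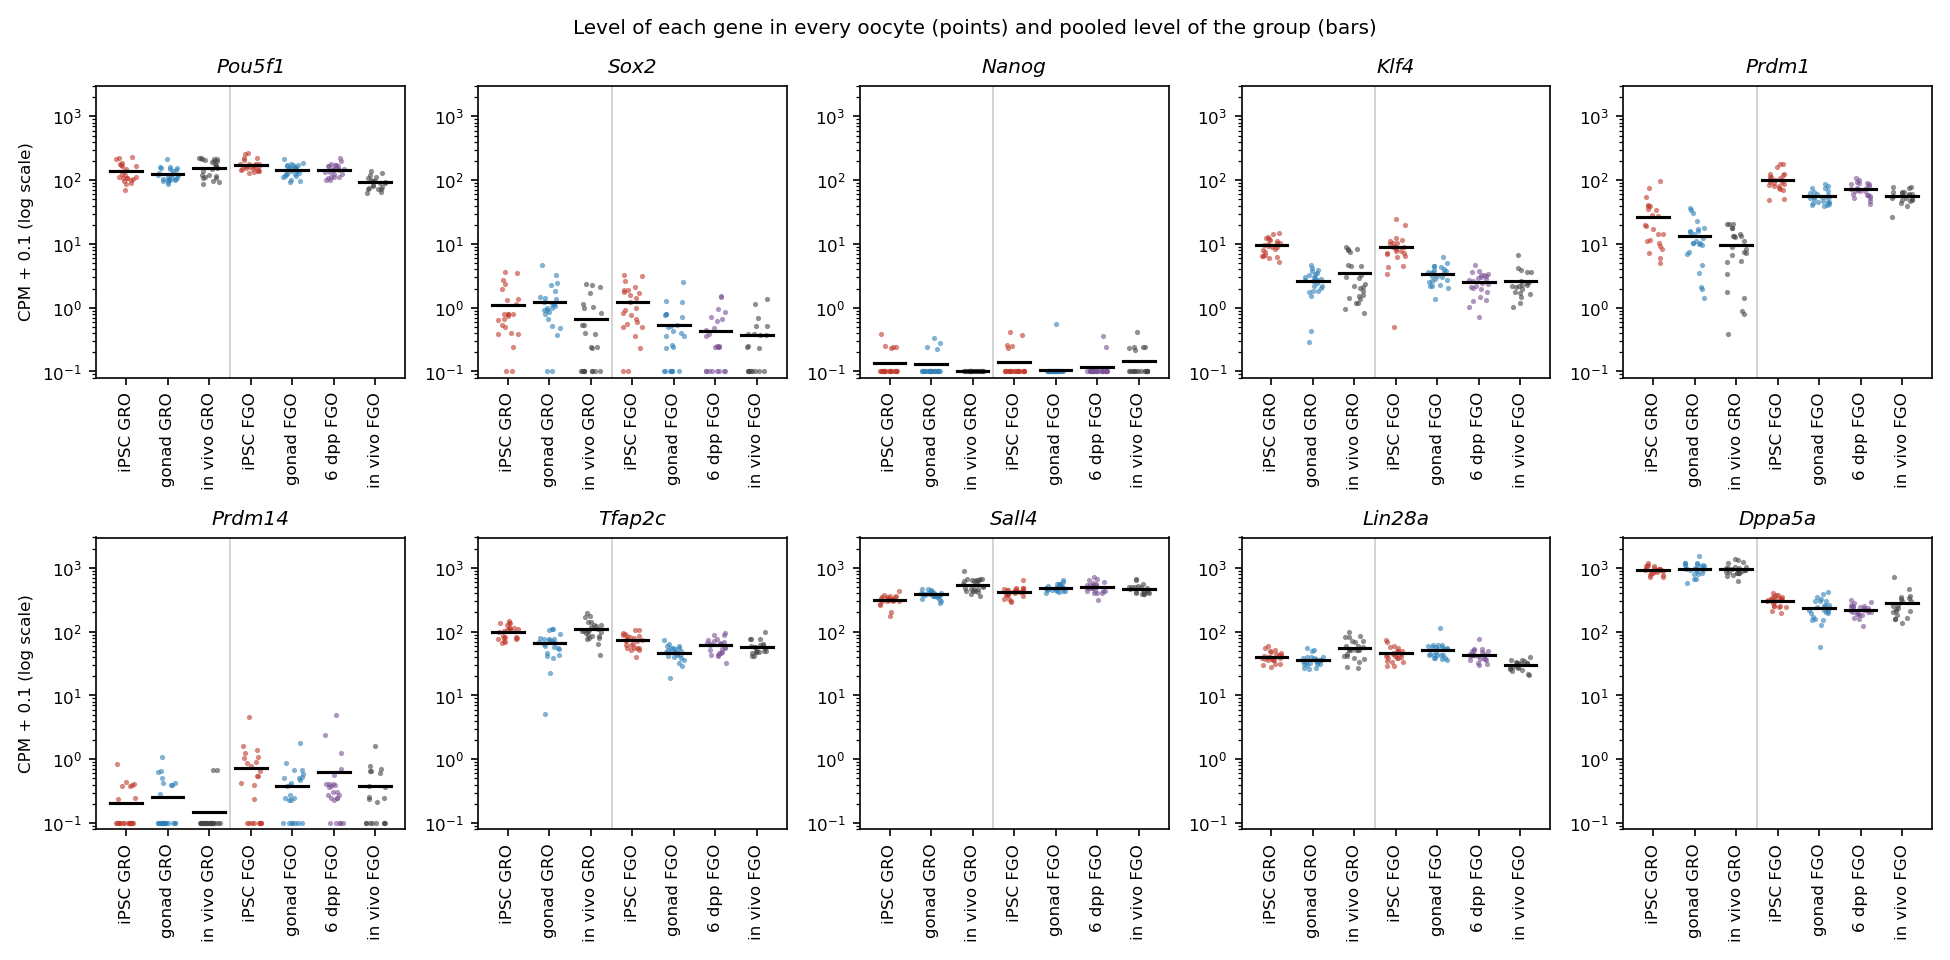
Level of each gene in every oocyte as CPM + 0.1 on a log axis, by group, with oocytes as points coloured by source and the pooled level of a group as a black bar; a grey line parts GROs from FGOs. Klf4 is higher in both iPSC-derived groups (9.36 and 8.89 CPM pooled) than in the other groups (2.42 to 3.39 CPM pooled, with in vivo GROs 17 to 24 at 4.47 to 8.81 CPM), Prdm1 is higher and Dppa5a lower in FGOs than in GROs of each source, and Nanog lies at 0 in most oocytes.

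Klf4, a zinc finger factor of the naive pluripotent state and one of the classical reprogramming factors, showed the clearest difference by origin. Its pooled level was 9.36 CPM in iPSC-derived GROs (8.90 to 9.84), with oocytes from 5.05 through 9.20 to 14.6 CPM. It was 2.57 CPM in gonad-derived GROs (2.32 to 2.83), with oocytes from 0.194 through 2.64 to 4.51 CPM. It was 3.39 CPM in in vivo GROs (3.11 to 3.69), with oocytes from 0.729 through 2.14 to 8.81 CPM. The in vivo value joins oocytes 1 to 16, at 1.75 CPM (0.729 to 3.19), and oocytes 17 to 24, at 6.69 CPM (4.47 to 8.81), which do not overlap. Every iPSC-derived GRO thus exceeded every gonad-derived GRO, and every one exceeded in vivo GROs 1 to 16, while 14 of 23 exceeded the highest of in vivo GROs 17 to 24. Among FGOs, Klf4 was at 8.89 CPM in iPSC-derived oocytes (8.45 to 9.36), with oocytes from 0.407 through 8.48 to 24.3 CPM. It was at 3.28 CPM in gonad-derived oocytes (1.27, 3.24 and 6.04 CPM), at 2.42 CPM in 6 dpp oocytes (0.626, 2.42 and 4.57 CPM) and at 2.50 CPM in oocytes grown in vivo (0.927, 2.15 and 6.53 CPM). Of 24 iPSC-derived FGOs, 20 exceeded the highest gonad-derived FGO and 1 lay below the lowest. That exception was iPSC-derived FGO 13. Spesp1, the gene nearest to Klf4 across oocytes, was at 4.20 CPM in it, the lowest of its group. Outside the iPSC origin Spesp1 reached at most 0.573 CPM. Whether an oocyte of the iPSC groups came from germ cells left in the host gonad was not tested, nor whether sequences used to reprogram the line are counted with Klf4.

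The Klf4 ratio between iPSC-derived and gonad-derived oocytes was 1.68 on the log2 scale in GROs, and 1.64 to 1.73 with any 1 oocyte left out. In FGOs it was 1.31, and 1.22 to 1.37 with any 1 left out. Log2 ratios here and below are of pooled CPM + 0.5. The groups outside the iPSC origin followed each other closely in the order of levels, and their interquartile ranges overlapped from in vivo GROs down to 6 dpp FGOs. The same held for neighbours in the order of the other genes above 1 CPM, except for a gap between FGOs and GROs in Prdm1 and Dppa5a, one below gonad-derived GROs in Pou5f1 and one between gonad-derived and iPSC-derived GROs in Sall4. Between gonad-derived and in vivo GROs the sign depended on the in vivo oocytes: the log2 ratio was -0.34 pooled, 0.45 without in vivo GROs 17 to 24 and -1.23 without 1 to 16. Growth left the level in iPSC-derived oocytes nearly where it was, with a log2 ratio of -0.07 for FGOs over GROs, and 0.01 under TMM scaling.

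Prdm1 is a repressor that starts germ cell specification, and its reporter was used to sort the precursors of these oocytes. In GROs its pooled level was 26.6 CPM for the iPSC origin (25.8 to 27.4), with oocytes from 4.91 through 19.1 to 96.4 CPM. It was 13.3 CPM for the gonad origin (1.32, 10.7 and 36.9 CPM) and 9.50 CPM in vivo (0.289, 8.45 and 20.5 CPM). The groups overlapped widely, with 6 of 23 iPSC-derived GROs above the highest gonad-derived GRO and 10 of 23 above the highest in vivo GRO. The log2 ratio of iPSC-derived to gonad-derived GROs was 0.98, just short of the 2-fold line at 1. It ranged from 0.79 to 1.09 with 1 oocyte left out, and any of 14 of the 47 oocytes, when left out, carried it past the line. These were iPSC-derived GROs 4, 8, 10, 11, 13, 14, 16, 17, 18 and 20 and gonad-derived GROs 2, 4, 23 and 24.

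In the 3 sources with both stages, Prdm1 had a CPM several times as high in FGOs. Pooled levels were 102 CPM for the iPSC origin (48.6, 97.7 and 178 CPM), 56.9 CPM for the gonad origin (39.1, 53.7 and 87.7 CPM), 72.7 CPM for 6 dpp follicles (42.2, 71.1 and 108 CPM) and 56.5 CPM in vivo (26.8, 57.8 and 79.2 CPM). Of 24 iPSC-derived FGOs, 22 lay above the gonad-derived median and 16 above the gonad-derived maximum, at a log2 ratio of 0.84 (0.79 to 0.88 with 1 oocyte left out). Whether the reporter contributes to the counts of Prdm1 was not tested. Dppa3, the gene of the other reporter, was at 2996 CPM in GROs of the iPSC origin and 1551 CPM in those of the gonad origin (log2 ratio 0.95), and at 1819.5 and 1216 CPM in FGOs (log2 ratio 0.58). Within GROs, Prdm1 followed the summed granulosa and cumulus genes across oocytes (Spearman correlation 0.76 in 23 iPSC-derived, 0.70 in 24 gonad-derived and 0.70 in 24 in vivo oocytes). Within FGOs its correlation with that sum was 0.15, 0.12, -0.08 and 0.24 for the iPSC, gonad, 6 dpp and in vivo origins. In GROs, Cyp19a1 (8.87 to 20.1 CPM) and Kitl (5.97 to 8.56 CPM) led that sum. Each of its other genes was at no more than 3.23 CPM in GROs, with Amh at 0.0637 to 0.402 CPM. The sum in GROs thus stood mostly for this pair and not for granulosa markers at large. Cyp19a1, like Prdm1, was higher in FGOs than in GROs of each source. The part of granulosa RNA in the Prdm1 level was not tested.

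The other specification factors behaved differently. Tfap2c, which encodes the AP-2 gamma factor, was at 100.1 CPM in iPSC-derived GROs (67.3, 103 and 149 CPM), 66.3 CPM in gonad-derived GROs (5.05, 67.3 and 112 CPM) and 109.6 CPM in in vivo GROs (42.9, 104 and 199 CPM). The iPSC-derived GROs therefore lay near the in vivo level, and it was the gonad-derived group that was lower. In FGOs Tfap2c was at 73.0 CPM (39.9, 72.2 and 107 CPM), 46.6 CPM (18.7, 47.3 and 73.3 CPM), 61.4 CPM (31.8, 62.2 and 93.8 CPM) and 58.4 CPM (41.7, 56.0 and 98.8 CPM) for the iPSC, gonad, 6 dpp and in vivo origins. Between iPSC-derived and gonad-derived oocytes the log2 ratio was 0.59 in GROs and 0.64 in FGOs, and 23 of 23 and 23 of 24 iPSC-derived oocytes lay above the gonad-derived median. Prdm14, which encodes a repressor needed for germ cell specification and naive pluripotency, stayed under 1 CPM in every group, from 0.0494 CPM in in vivo GROs to 0.626 CPM in iPSC-derived FGOs.

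Among the core factors, Pou5f1 was detected in all 163 oocytes. Pooled levels in GROs were 138 CPM for the iPSC origin (69.0, 122 and 231 CPM), 126 CPM for the gonad origin (87.8, 117 and 212 CPM) and 157 CPM in vivo (87.3, 159.7 and 222 CPM). In FGOs they were 175 CPM (129, 166 and 268 CPM), 147 CPM (93.9, 148 and 212 CPM), 146 CPM (101, 147 and 219.6 CPM) and 92.1 CPM (64.0, 91.2 and 137 CPM) for the iPSC, gonad, 6 dpp and in vivo origins. The 3 groups of FGOs that had been grown in culture thus had a higher CPM of Pou5f1 than in vivo FGOs. For 6 dpp over in vivo the log2 ratio was 0.66 and for iPSC over in vivo 0.92, with 22 of 24 iPSC-derived FGOs above the highest in vivo FGO. In vivo FGOs closed the order of levels, and their interquartile range lay apart from that of the next group, gonad-derived GROs.

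Sox2, the partner of Pou5f1 in stem cells, was low throughout. It stood at 1.00 CPM in iPSC-derived GROs (0, 0.687 and 3.59 CPM), 1.13 CPM in gonad-derived GROs (0, 0.924 and 4.62 CPM) and 0.556 CPM in in vivo GROs (0, 0.215 and 2.23 CPM), the last made up of 0.222 CPM in oocytes 1 to 16 and 1.23 CPM in oocytes 17 to 24. In FGOs it was at 1.14 CPM for the iPSC origin (0, 0.863 and 3.17 CPM), against 0.431 CPM for the gonad origin, 0.339 CPM for 6 dpp follicles and 0.269 CPM in vivo. Reads of Sox2 were found in 22 of 24 iPSC-derived FGOs, and in 17 of 24, 16 of 24 and 12 of 20 FGOs of those other groups. The pooled CPM of iPSC-derived FGOs was 2.64-fold that of gonad-derived and 4.23-fold that of in vivo FGOs, and the Poisson interval of 0.981 to 1.31 CPM lay above those of the other FGOs. Sox2 was thus lower in FGOs than in GROs for the gonad origin (log2 ratio -0.81) and in vivo (-0.46, but 0.09 without in vivo GROs 17 to 24), whereas in iPSC-derived oocytes the ratio was 0.12. The difference between these ratios was not tested.

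Sall4, a zinc finger factor of stem cells and germ cells, had its lowest pooled level of each stage in iPSC-derived oocytes. It was at 317 CPM in iPSC-derived GROs (177, 323 and 435 CPM), 385 CPM in gonad-derived GROs (279, 384 and 473 CPM) and 549 CPM in in vivo GROs (367, 547 and 888 CPM). Of 23 iPSC-derived GROs, 21 lay below the lowest in vivo GRO, at a log2 ratio of -0.79 (-0.65 without in vivo GROs 17 to 24 and -1.05 without 1 to 16). Gonad-derived GROs were lower than in vivo GROs too, at -0.51 (-0.37 without 17 to 24 and -0.77 without 1 to 16). The log2 ratio of iPSC-derived to gonad-derived GROs was -0.28. In FGOs Sall4 was at 419 CPM for the iPSC origin (287, 420.4 and 649 CPM) and between 475 and 505 CPM in the other groups, with log2 ratios of -0.23 to gonad-derived and -0.18 to in vivo oocytes.

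Lin28a, an RNA-binding protein that blocks maturation of let-7 microRNAs, was at 40.6 CPM in iPSC-derived GROs (27.6, 39.4 and 58.7 CPM), 36.4 CPM in gonad-derived GROs (26.1, 34.9 and 54.9 CPM) and 55.4 CPM in in vivo GROs (26.9, 51.9 and 99.9 CPM). In FGOs it was at 45.6 CPM (29.0, 44.3 and 74.8 CPM), 51.2 CPM (35.5, 50.5 and 116 CPM), 43.6 CPM (30.3, 43.2 and 75.7 CPM) and 29.9 CPM (20.5, 31.2 and 40.4 CPM) for the iPSC, gonad, 6 dpp and in vivo origins. As with Pou5f1, in vivo FGOs had the lowest level: 15 of 24 iPSC-derived and 16 of 24 6 dpp FGOs exceeded the highest of them.

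Dppa5a, a small RNA-binding protein used as a stem cell marker, was nearly equal across sources in GROs and less so in FGOs. GROs had 943 CPM for the iPSC origin (715, 942 and 1189 CPM), 977 CPM for the gonad origin (587, 979 and 1539 CPM) and 962 CPM in vivo (619, 943 and 1398 CPM). FGOs had 303 CPM (193, 310.3 and 411 CPM), 232 CPM (57.1, 229 and 422 CPM), 221 CPM (122, 220.5 and 309.5 CPM) and 281 CPM (135, 246 and 729 CPM) for the iPSC, gonad, 6 dpp and in vivo origins. No iPSC-derived FGO reached the lowest iPSC-derived GRO, whereas in vivo the stages overlapped. Among FGOs, 22 of 24 iPSC-derived oocytes lay above the gonad-derived median, at a log2 ratio of 0.38. Its count shares sequence with copies elsewhere: 7 other genes of GENCODE vM21 match its transcript at 95% identity or more over at least 75 bases, the read length. One of them, the processed pseudogene Gm6083 (96.9% identity over 357 bases), had 135 to 138 CPM in GROs and 36.6 to 53.6 CPM in FGOs, so the level of Dppa5a is uncertain to the extent that reads shared by the copies were not counted. Pou5f1, Sall4 and Lin28a overlap antisense transcripts by 317, 526 and 234 exonic bases, and since Smart-seq2 keeps no strand, reads of a gene and its antisense partner cannot be told apart.

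The step from the stem cell to the germ cell (IVP) was read by comparing iPSC-derived with gonad-derived oocytes. Genes entered with CPM above 1 in at least 3 oocytes of the compared groups, which left out Nanog and Prdm14 in GROs and Nanog in FGOs. In GROs, 1 of 8 genes of the list, Klf4, was at least 2-fold apart, where 3.83% of 13029 genes were. It was the one member whose oocytes did not overlap, as for 0.376% of genes, and 0 of 8 were 4-fold apart (0.576% of genes). The study drew a 4-fold line too, but on coefficients of a model and together with a limit on the false discovery rate. The counts here are of bare ratios of pooled CPM + 0.5, so they are not the study's measure. In FGOs, 1 of 9, again Klf4, was 2-fold apart (6.21% of 12889 genes), 0 of 9 did not overlap (0.489%) and 0 of 9 were 4-fold apart (0.714%). Klf4 was thus past 2-fold in favour of the iPSC origin at both stages, as were 0.879% of the 12396 genes read at both.

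The next comparison was with oocytes grown in vivo, and it uses the same iPSC-derived groups as the one above. In GROs, 2 of 8 genes of the list were past 2-fold, higher in the iPSC origin (9.99% of genes were apart). These were Prdm1, at a log2 ratio of 1.44, and Klf4, at 1.34. The part in either ratio of oocyte size, which was greater in iPSC-derived than in in vivo GROs, was not tested. Without in vivo GROs 17 to 24, 3 of 8 genes were past 2-fold (8.93% of genes), Klf4 at 2.13, Prdm1 (2.93-fold in CPM) and Sox2 at 1.06. Without 1 to 16, 2 of 8 were (17.9% of genes), Prdm1 at 1.33 and Sall4 at -1.05, with Klf4 at 0.45 and Sox2 at -0.20. For Sox2, no in vivo GRO of 1 to 16 was above 0.939 CPM. It passed the filter there through iPSC-derived GROs alone, so its place among the 3 genes follows from the filter. Prdm1 was thus past 2-fold against either set, and Klf4 against the larger one. With all in vivo GROs, none of the 8 was without overlap (1.32%) and 0 of 8 were 4-fold apart (1.26%). Without 17 to 24, Klf4 was past 4-fold (5.35-fold in CPM), with 23 of 23 iPSC-derived GROs above the highest in vivo GRO. In FGOs, 2 of 9 were past 2-fold in the same direction (14.5% of genes were apart), Klf4 at 1.65 and Sox2 at 1.09. Sox2 passed the level filter through the iPSC-derived group, where 11 FGOs were above 1 CPM against 2 in vivo, so its place in this count follows from the filter. In these FGOs there were 0 of 9 genes without overlap (3.32%) and 0 of 9 past 4-fold (2.07%). Beside them, 5 of 10 granulosa and cumulus genes, 2 of 3 theca and stroma genes and 3 of 12 oocyte markers (Zp1, Zp2 and Padi6) were at least 2-fold lower in iPSC-derived than in in vivo FGOs, and their part in the ratios of the list was not tested.

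In steps of culture without stem cells all log2 ratios of the list, which include the pseudocount, lay within 2-fold with all oocytes in the groups, although between gonad-derived and in vivo GROs the raw CPM differed 2.04-fold for Sox2 and, on few reads and under the level filter, 3.09-fold for Prdm14. Gonad-derived against in vivo GROs (IVD) had 0 of 8 genes past 2-fold (7.04% of genes) and 0 past 4-fold (0.704%), with Tfap2c the farthest at -0.72. Without in vivo GROs 17 to 24, 1 of 8 was past 2-fold (6.12% of genes), Sox2 at 1.18, and without 1 to 16 it was Klf4, at -1.23 (14.8% of genes). Sox2 passed the filter without 17 to 24 through the gonad-derived group alone, where 11 GROs were above 1 CPM, so its place follows from the filter. Without 1 to 16 Sox2 was at -0.08. Tfap2c was at -0.86 without 17 to 24 and -0.40 without 1 to 16. Gonad-derived against 6 dpp FGOs (IVD) had 0 of 9 past 2-fold (2.59%) and 0 past 4-fold (0.432%), the farthest being Prdm14 at -0.40, which was -0.12 without 6 dpp FGO 3 and 0.05 between medians of oocytes, and next Tfap2c at -0.39. For 6 dpp against in vivo FGOs (IVG) it was 0 of 9 (4.38%) and 0 past 4-fold (0.363%), the farthest being Pou5f1 at 0.66. Klf4 ratios were -0.34, 0.37 and -0.04 in these comparisons, against 1.68 and 1.31 for the iPSC origin.

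**Figure D2:**
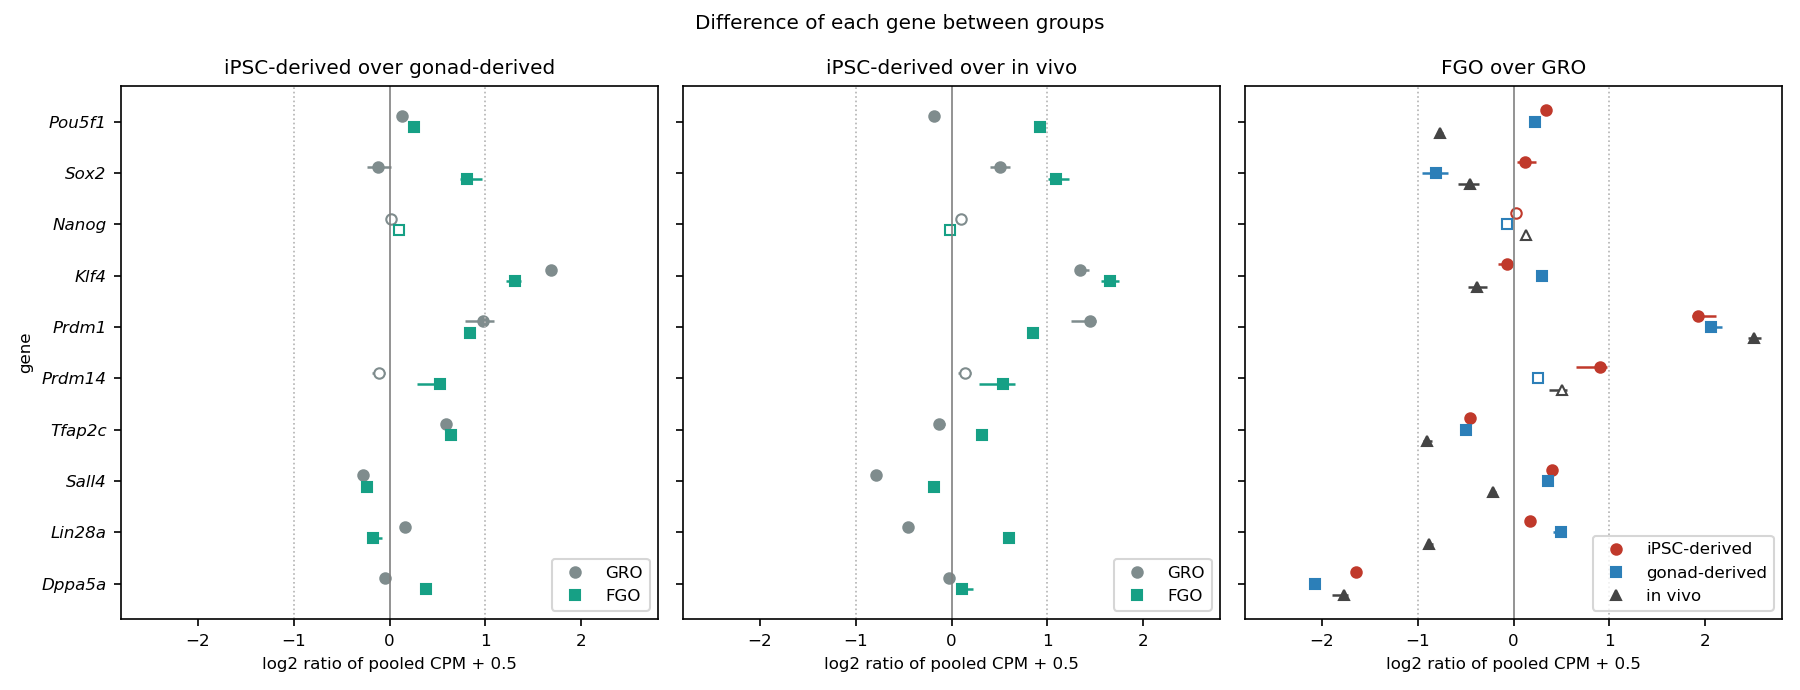
Log2 ratio of pooled CPM + 0.5 for each gene between iPSC-derived and gonad-derived oocytes, between iPSC-derived and in vivo oocytes, and between FGOs and GROs of each source; lines span the values with any 1 oocyte left out, dotted lines mark 2-fold and open symbols are genes under the level filter. Klf4 lies past the 2-fold line in all 4 comparisons by origin (1.31 to 1.68) with all oocytes, though at 0.45 against in vivo GROs 17 to 24 alone, and in the comparison of stages Prdm1 lies at 1.92 to 2.51 and Dppa5a at -1.64 to -2.07.

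Growth was compared in the 3 sources that had both stages. From GROs to FGOs, 2 genes were at least 2-fold apart in each of them: Prdm1 was higher and Dppa5a lower. In vivo, Prdm1 had a log2 ratio of 2.51 (5.95-fold) and Dppa5a -1.77, that is 2 of 8 genes against 23.7% of all genes. Without in vivo GROs 17 to 24, 3 of 7 genes were past 2-fold (22.4% of genes), with Tfap2c at -1.04. Without 1 to 16, 5 of 8 were (30.4% of genes), with Sox2 at -1.17, Klf4 at -1.26 and Lin28a at -1.23. Sox2 passed the filter there through GROs 17 to 24, since 2 in vivo FGOs were above 1 CPM, so its place in that count follows from the filter. In iPSC-derived oocytes the ratios of Prdm1 and Dppa5a were 1.92 (3.84-fold) and -1.64, 2 of 9 genes against 22.0%. Prdm14, at 0.90 (6.05-fold in raw CPM), was the next in that source and passed the filter through FGOs alone, with 4 FGOs and 0 GROs above 1 CPM. In gonad-derived oocytes they were 2.06 (4.28-fold) and -2.07, 2 of 8 genes against 15.8%. The 4-fold line was passed by Prdm1 in vivo (5.02% of genes), by neither gene in iPSC-derived oocytes (4.74%) and by both in gonad-derived oocytes (2.75%). Oocytes of the stages did not overlap for Prdm1 in vivo (3.45% of genes), for Dppa5a in the iPSC origin (8.01%) and for both genes in the gonad origin (3.98%). Among genes with ratios of opposite sign by source were Pou5f1, at 0.34, 0.22 and -0.77, Sall4, at 0.40, 0.36 and -0.21, and Lin28a, at 0.17, 0.49 and -0.88, for the iPSC, gonad and in vivo origins. For these 3 genes FGOs grown in culture thus had a higher CPM, and FGOs grown in vivo a lower one, than GROs of the same source. This held also with either set of in vivo GROs left out. Without in vivo GROs 17 to 24, however, Sall4 was at -0.06 in vivo, a difference of 1.05-fold. Sox2 (0.12, -0.81 and -0.46) and Klf4 (-0.07, 0.30 and -0.38) differed in sign too, and for both the in vivo sign changed without in vivo GROs 17 to 24 (0.09 and 0.41).

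Traces of the lowest genes were read as reads and oocytes with a read. Nanog, the homeodomain factor of naive cells, had 6 reads in 5 of 23 iPSC-derived GROs (21.7%, exact binomial 95% interval 7.46 to 43.7%) and 5 reads in 4 of 24 gonad-derived GROs (16.7%, 4.74 to 37.4%). In vivo GROs had 0 reads in 24 oocytes, which allows up to 0.0185 CPM by the limit of 3 reads and 0.0228 CPM by the upper Poisson bound. In FGOs Nanog had 7 reads in 5 of 24 iPSC-derived oocytes (20.8%, 7.13 to 42.2%), 1 read in 1 of 24 gonad-derived, 3 reads in 2 of 24 6 dpp and 7 reads in 6 of 20 in vivo oocytes (30.0%, 11.9 to 54.3%). No oocyte held 3 reads. The iPSC-derived oocytes were therefore not set apart by Nanog at this depth, with pooled levels of 0.0365 and 0.0421 CPM inside the range that ends at 0.0483 CPM in in vivo FGOs. Part of the Nanog transcript is also repetitive, since 66 other genes match a stretch of it at 95% identity or more over at least 75 bases.

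Prdm14 was found in 8 of 23 iPSC-derived GROs (34.8%), 9 of 24 gonad-derived GROs (37.5%) and 2 of 24 in vivo GROs (8.33%). In FGOs it was found in 15 of 24 (62.5%), 17 of 24 (70.8%), 19 of 24 (79.2%) and 12 of 20 (60.0%) for the iPSC, gonad, 6 dpp and in vivo origins. By at least 1 read, the share of iPSC-derived oocytes was inside the range of the other sources at both stages. By at least 3 reads it was not in FGOs, where 12 of 24 iPSC-derived oocytes passed against 9 of 24 gonad-derived, 5 of 24 6 dpp and 6 of 20 in vivo oocytes. In GROs 1 of 23, 4 of 24 and 2 of 24 passed for the iPSC, gonad and in vivo origins. The pooled level of 0.626 CPM in iPSC-derived FGOs leaned on few oocytes, the highest, FGO 13, holding 33 of 104 reads at 4.47 CPM. In 6 dpp FGOs, at 0.527 CPM, the highest oocyte held 31 of 84 reads.

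Genes of unrelated tissues give the level at which reads of this kind turn up. Of 10 such genes, 9, among them Alb, Ptprc and Krt5, lay between 0 and 0.201 CPM in all groups. Ins2, an insulin gene, was at 0.395 to 2.02 CPM, with reads in most oocytes of every source. Nanog in every group, and Prdm14 in GROs, were within the range of the 9 low genes over all groups. Prdm14 in FGOs (0.276 to 0.626 CPM) and Sox2 (0.269 to 1.14 CPM) were above it. The top of that range is Alb in 6 dpp FGOs, with 20 of 32 reads in 1 oocyte. Within each GRO group Prdm14 was above the highest of the 9, though Poisson intervals overlapped. It was at 0.103 against 0.0851 CPM (iPSC, Alb), 0.153 against 0.115 CPM (gonad, Alb) and 0.0494 against 0.0371 CPM (in vivo, Cd3e). In iPSC-derived FGOs, Ins2 was at 0.620 CPM, below Sox2 (1.14 CPM) and close to Prdm14 (0.626 CPM). Elsewhere Ins2 was above Sox2 in iPSC-derived GROs (2.02 against 1.00 CPM) and gonad-derived GROs (1.73 against 1.13 CPM). It was also above Sox2 in gonad-derived (1.05 against 0.431 CPM), 6 dpp (0.395 against 0.339 CPM) and in vivo FGOs (0.766 against 0.269 CPM). In vivo GROs had 0.538 against 0.556 CPM. Prdm14 was below Ins2 in all groups but iPSC-derived and 6 dpp FGOs.

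**Figure D3:**
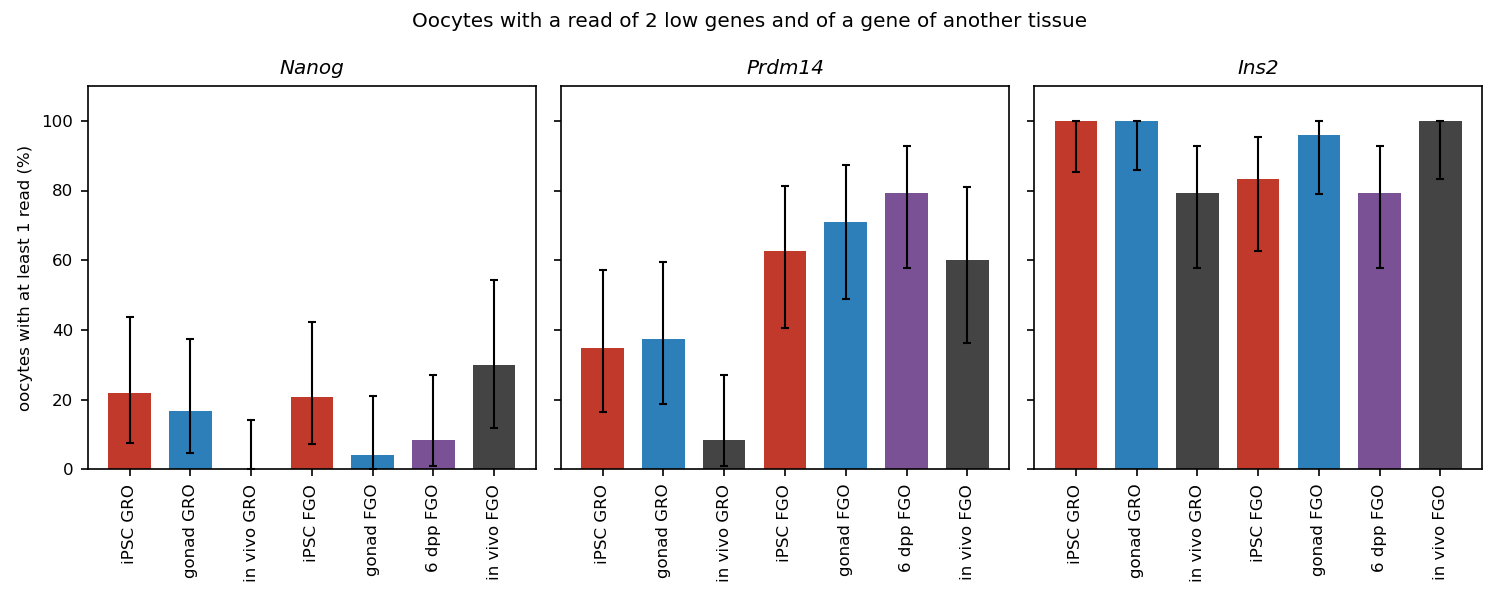
Share of oocytes in percent with at least 1 read of Nanog, Prdm14 and Ins2 in each group, with exact binomial 95% intervals. Nanog was read in 0 to 30.0% of oocytes and Prdm14 in 8.33 to 79.2%, while reads of Ins2 occurred in most oocytes of each group.

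The wider pluripotency network was read in the same way. Of 25 further genes of the naive network, 18 passed the filter in GROs and 17 in FGOs. Between iPSC-derived and gonad-derived oocytes 1 was at least 2-fold apart at each stage, a share near the 3.83% and 6.21% of all genes, and the median log2 ratios of -0.04 and -0.06 lay near those of all genes. That gene was Zfp42 (Rex1), a marker of naive stem cells, at 4.16, 1.75 and 0.593 CPM in GROs of the iPSC, gonad and in vivo origins. In FGOs it was at 1.55 CPM against 0.246 CPM for the gonad origin, 0.395 CPM for 6 dpp follicles and 1.56 CPM in vivo, so that the iPSC-derived level equalled that of in vivo FGOs. Tcl1, a coactivator of the Akt kinase, was abundant at 2503 to 4531 CPM, Dppa2 was at 80.7 to 152 CPM and Esrrb at 31.9 to 64.4 CPM, each within 2-fold between the iPSC and gonad origins at both stages. Against in vivo oocytes, Zfp42 was the one network gene of 18 past 2-fold in GROs (log2 ratio 2.09, against 9.99% of all genes). In FGOs 2 of 17 were (14.5% of all genes), with Tbx3, a T-box factor, higher (11.6 against 3.48 CPM) and Esrrb, an orphan nuclear receptor, lower (31.9 against 64.4 CPM). Of the 7 genes of the network that passed the filter at neither stage, Fgf4, Tdgf1, Utf1, Gdf3, Lefty1 and Lefty2 were at no more than 0.0941 CPM in any group, and Mycn at no more than 0.530 CPM.

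The classical reprogramming factors are Pou5f1, Sox2, Klf4 and Myc. Myc, which drives growth and division, was at 0.748, 0.274 and 0.167 CPM in GROs of the iPSC, gonad and in vivo origins. In FGOs it was at 0.578, 0.973, 0.358 and 0.586 CPM for the iPSC, gonad, 6 dpp and in vivo origins. The log2 ratios of iPSC-derived to gonad-derived GROs were 0.13 for Pou5f1, -0.12 for Sox2, 1.68 for Klf4 and 0.69 for Myc. In FGOs they were 0.25, 0.81, 1.31 and -0.45 in the same order. The 4 genes therefore differed by unlike amounts, and on this scale, which understates low genes, Klf4 alone was past 2-fold. In raw CPM, Sox2 in FGOs (2.64-fold) and Myc in GROs (0.748 against 0.274 CPM) were past it too. With a pseudocount of 0.1 CPM, Sox2 in FGOs was at 1.22.

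Markers of the primed epiblast, the state that precedes germ cell induction in culture, gave 0 of 4 genes 2-fold apart between iPSC-derived and gonad-derived GROs and 0 of 3 in FGOs, too few genes to be read against the 3.83% and 6.21% of all genes. Otx2, a defining gene of that state, had 0 reads in every group. Of 17 further genes of primordial germ cells, 13 passed the filter at each stage, of which 1 was 2-fold apart in GROs and 2 in FGOs, against 3.83% and 6.21% of all genes. The list's median log2 ratios were 0.10 and 0.07. Ifitm3, a surface marker of early germ cells, was lower in iPSC-derived GROs (20.1 against 42.4 CPM). In FGOs Sycp3, a component of the meiotic chromosome axis, was higher (109 against 43.7 CPM) and Kit, the receptor through which granulosa cells signal to oocytes, was lower (123 against 277 CPM). Against in vivo GROs, 1 of 14 was past 2-fold (9.99% of all genes), Ifitm1, lower and passing the filter through in vivo GROs. Against in vivo FGOs, 1 of 13 was at least 2-fold higher, Sycp3 (log2 ratio 2.29). The 3 lower ones were Ddx4 (-1.05), Kit (-1.10) and Alpl (-2.08), where 14.5% of all genes were apart. Nanos3, Stra8 and Ifitm1 were at no more than 0.0739 CPM in iPSC-derived and gonad-derived oocytes.

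**Figure D4:**
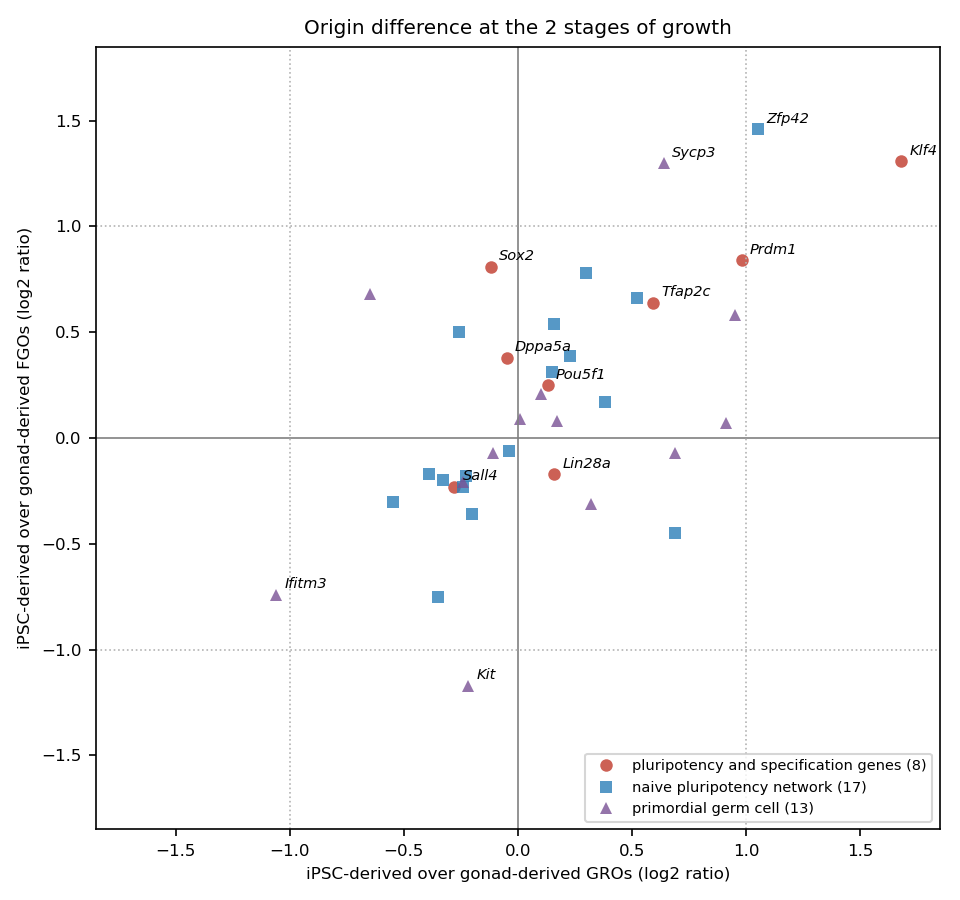
Log2 ratio of iPSC-derived to gonad-derived oocytes in GROs (horizontal) and in FGOs (vertical) for genes read at both stages: 8 of the pluripotency and specification genes, 17 of the naive network and 13 of primordial germ cells. Dotted lines mark 2-fold; Klf4 (1.68 and 1.31) and Zfp42 (1.05 and 1.46) lie past them at both stages.

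Genes most like each member were sought by Pearson's r of log2(CPM + 1) over the 163 oocytes, among 14088 genes. The oocytes share stage and source, so r describes mostly differences between groups. Nearest to Klf4 were Spesp1 (r = 0.766), Ddx19a (0.736) and Fam241a (0.728), and all 3, as a choice by likeness to Klf4 favours, were higher in both iPSC-derived groups than in any other group. Spesp1 was at 30.9 and 21.2 CPM in iPSC-derived GROs and FGOs, and at 0.0247 to 0.0700 CPM elsewhere. Nearest to Prdm1 were Etv1 (0.891), Rgn (0.882) and Mbd3l2 (0.877), which were higher in FGOs of every source. Nearest to Dppa5a were its own copy Gm6083 (0.985), Npm2 (0.935) and Dusp2 (0.931), lower in FGOs. For Sall4 they were Kbtbd7 (0.756), Igsf3 (0.748) and Jarid2 (0.746), for Pou5f1 Rcc1 (0.822), Llgl2 (0.815) and Trappc3 (0.801), for Lin28a Ywhag (0.761), Elavl2 (0.703) and Wbp1l (0.679), and for Tfap2c Nfx1 (0.669), Abcd3 (0.620) and Acaa1b (0.602).

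Within groups, where stage and source are held, most pairs of genes changed sign from group to group, and values in in vivo GROs join the sets 1 to 16 and 17 to 24. The widest spread was that of Prdm1 and Sall4, with a Spearman correlation of -0.77 across 20 in vivo FGOs and 0.61 across 24 6 dpp FGOs. Klf4 and Prdm1 had a correlation of 0.56 across 23 iPSC-derived GROs but between -0.26 and 0.31 in the other groups. Pou5f1 and Lin28a were positively related in all 7 groups, with correlations of 0.10 to 0.51, and Pou5f1 and Dppa5a negatively in all 7, from -0.49 to -0.11. With Dppa3, which is no member of the list, Sall4 reached -0.81 in iPSC-derived GROs and lay between -0.50 and 0.03 elsewhere. Klf4 had correlations of -0.10 to 0.27 with the total count of an oocyte, and of -0.31 to 0.48 with the summed granulosa and cumulus genes, the highest being in iPSC-derived GROs.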

How the data were processed

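Gene expression was measured in 163 single mouse oocytes. By the study's methods, STAR placed the reads (single-end) on GRCm38 plus spike-ins. The authors deposited raw counts of uniquely mapped exonic reads (QuasR) for 1 transcript per gene, with the exonic length as another column; Smart-seq2 libraries keep no strand. Reads that match several copies of a gene were not counted. No normalization had been applied to the deposited counts. RefSeq (GRCm38.p6) gave symbols for 21907 of 21950 genes, and 0 sample columns were left unused.

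The 10 genes, the lists and the comparisons were chosen with earlier results of these data known. Counts were summed by group and divided by the summed library (Python 3.11.15, numpy 2.4.6, pandas 2.3.3, scipy 1.17.1). Ratios used a pseudocount of 0.5 CPM. Each group was 1 sample, so no test was run. The ratio step was checked on simulated counts. All 10 members are described; other genes are named from the lists, where at least 2-fold apart by origin or for their level, or as the 3 nearest genes of a member that reaches 5 CPM. Myc was singled out after its values were seen. Alternatives were pseudocounts of 0.1 and 2 CPM, TMM (edgeR 4.0.16) and median-of-ratios (DESeq2 1.42.0) scaling, means and medians over oocytes, no filter, a 4-fold line, oocytes left out, in vivo GROs 17 to 24 or 1 to 16 left out (added after seeing the data), and thinning to 2000000 reads. Shared sequence was sought with blastn in GENCODE vM21 transcripts. One listed gene is not reported here.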

Additional observations from a re-analysis of the deposited data

How the results depend on the processing

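Of the counts of genes at least 2-fold apart, those for gonad-derived against 6 dpp FGOs and 6 dpp against in vivo FGOs kept their value under each alternative run. At 4-fold the count was 0 for iPSC-derived against gonad-derived GROs and FGOs, 0 against in vivo GROs and FGOs, 1 for growth in vivo and 0 for growth of iPSC-derived oocytes. With a pseudocount of 0.1 CPM the count for iPSC-derived against gonad-derived FGOs was 2, and with 2 CPM that against in vivo FGOs was 1. Leaving out 1 oocyte gave 1 to 2 genes for iPSC-derived against gonad-derived GROs, and did not change the other counts: 1 for these origins in FGOs, 2 for each comparison of the iPSC origin with in vivo and for each growth comparison, and 0 for the remaining ones. Klf4 stayed at least 2-fold higher in iPSC-derived oocytes under all of these but the 4-fold line, and except against in vivo GROs 17 to 24 alone. Chosen after seeing the data, leaving out in vivo GROs 17 to 24 gave 3 genes for iPSC-derived against in vivo GROs, 1 for gonad-derived against in vivo GROs and 3 for growth in vivo, and leaving out 1 to 16 gave 2, 1 and 5. Sox2 was part of the counts for the iPSC and gonad origins without 17 to 24 and for growth without 1 to 16. Each time it passed the filter through the higher group alone. The log2 ratio of Klf4 against in vivo GROs was 2.13 and 0.45 for the iPSC origin and 0.45 and -1.23 for the gonad origin, and 0.41 and -1.26 for growth in vivo. With at least 3 reads asked for, Nanog was found in 0 iPSC-derived GROs and 0 FGOs and Prdm14 in 1 GRO and 12 FGOs. After thinning, Nanog was found in 2 GROs and 0 FGOs and Prdm14 in 4 GROs and 9 FGOs of the iPSC origin. Thinned Prdm14 was found in 3 gonad-derived and 2 in vivo GROs, and in 9 gonad-derived, 5 6 dpp and 6 in vivo FGOs. The iPSC share was then the highest in GROs and equal to the gonad share in FGOs. Thinned Nanog was found in 2 gonad-derived and 0 in vivo GROs, and in 1 gonad-derived, 1 6 dpp and 3 in vivo FGOs. Under a pseudocount of 0.1 CPM the log2 ratio of Prdm14 for growth of iPSC-derived oocytes was 1.84, which made 3 genes past 2-fold there, as there were for growth of gonad-derived oocytes. Apart from the sets of in vivo GROs left out, ratios near 0 changed sign under some settings, none of them past 2-fold. With those sets left out, Klf4 (values above) and Sox2 changed sign with a value past 2-fold. Without 17 to 24 and without 1 to 16, Sox2 was at 1.06 and -0.20 for iPSC-derived against in vivo GROs. It was at 1.18 and -0.08 for gonad-derived against in vivo GROs, and at 0.09 and -1.17 for growth in vivo. No paired analysis was possible because the results come from no test and no label ties equal numbers of different groups to each other. Among in vivo GROs the numbers did part 17 to 24 from 1 to 16, with 838 of 12447 genes without overlap.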

Other observations

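Single oocytes held unusual combinations of these genes. The iPSC-derived FGO 13 had the lowest Klf4 of its group (0.407 CPM) together with the highest Prdm14 (4.47 CPM), no read of Sox2, the lowest Sall4 (287 CPM) and Lin28a at the lowest value of the group (29.0 CPM), while Pou5f1 was at 260.0 CPM. The gonad-derived GRO 23 had the lowest Klf4 (0.194 CPM) and the lowest Tfap2c (5.05 CPM) of its group, the highest Prdm1 (36.9 CPM) and the highest Prdm14 (0.971 CPM). The totals of these oocytes were 7.38 M and 5.15 M reads (M, mega). Both were picked after their values were seen.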
